A study of Mus musculus with 4 samples.

Results

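The 39 Hox cluster genes of the mouse were examined in palatal mesenchyme of embryos at E13.5, of 21352 genes in all. Members were all genes whose symbol was Hoxa, Hoxb, Hoxc or Hoxd followed by a number, and their 41 transcript entries were summed per gene and embryo. There were 11 Hoxa, 10 Hoxb, 9 Hoxc and 9 Hoxd genes, and every estimate for them was complete. Levels are FPKM, read fragments scaled by transcript length and by library size.

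The RNA came from 4 littermates of mixed background, 1 library per embryo, and from cells that were sorted for red fluorescence after dissection of the palatal shelves. All 4 embryos carried Osr2RFP/+, a knock-in at Osr2, so that RFP marks cells in which the Osr2 locus is active and no embryo had both Osr2 alleles unmodified. Of the controls, 1 was Osr2RFP/+ and 1 was Foxf2+/-Osr2RFP/+, and the other 2 embryos were Foxf2-/-Osr2RFP/+. Foxf2, a forkhead transcription factor of palatal mesenchyme, was deleted in the germ line and hence in every tissue of the mutants. Hereafter the embryos are called Foxf2+/+, Foxf2+/-, Foxf2-/- 1 and Foxf2-/- 2, and wherever 4 values are given they follow this order. With 1 embryo of each control genotype, no replicate measures how far the controls differ. Foxf2 itself was at 85.4, 45.1, 1.41 and 2.28 FPKM, and Osr2 lay between 129 and 147 FPKM in all of them. All 11 palatal mesenchyme markers were above 1 FPKM in every embryo, with sums of 1135 to 1256 FPKM, whereas all 6 endothelial markers and all 6 skeletal muscle markers were below 1 FPKM in every embryo. Of the markers of other cell types, 6 of 8 for red blood cells, 3 of 5 for white blood cells, 2 of 11 for epithelium and 1 of 8 for nerve and glia were at 1 FPKM or more in every embryo. The white blood cell markers summed to 7.78, 8.68, 7.5 and 10.2 FPKM, and the red blood cell markers to 297, 1837, 1597 and 4375 FPKM. Relative depth, from the deposited coverage per FPKM, was 1, 1.19, 1.02 and 1.14.

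Hox genes encode homeodomain transcription factors that lie in clusters, and along a cluster their order matches the order in which they are used from head to tail. In the trunk, limbs and hindbrain their combination gives a segment its identity. Neural crest cells that fill the first pharyngeal arch, the source of the palatal shelves, are known to form their skeleton without Hox expression, while Hoxa2 gives the crest of the second arch its character. In tissues where the clusters are off, Polycomb complexes hold them under histone H3 lysine 27 trimethylation, and their promoters are known to be rich in CG dinucleotides.

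The sequences immediately upstream of 3 Hox genes and of Six2 are shown. The Hox genes were at or near 0 in these cells. Their upstream windows had a median of 13 CG, against 2 in other genes below 0.1 FPKM and 11 in all genes. The Hox windows ranged from 3 to 48 CG, so those of Hoxd13 and Hoxa13 shown here hold more than most. Hoxc9 was listed at 0 in every embryo, Hoxd13 was the highest of the Hoxd genes, and Hoxa13 was also listed at 0 throughout. Six2, a homeobox gene of craniofacial mesenchyme, was the highest of the first-arch genes at a mean of 232 FPKM. Each is the 250 bases before the transcript start in mm9, read 5′ to 3′ on the strand of the gene, with every CG in capitals, and none overlaps an annotated exon.
Hoxc9, chr15:102807213-102807462, plus strand, 12 CG: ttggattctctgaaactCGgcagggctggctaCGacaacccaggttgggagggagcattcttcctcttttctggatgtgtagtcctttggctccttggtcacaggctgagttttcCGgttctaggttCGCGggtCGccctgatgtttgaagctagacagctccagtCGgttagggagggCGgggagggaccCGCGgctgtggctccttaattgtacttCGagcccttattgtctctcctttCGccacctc
Hoxd13, chr2:74506117-74506366, plus strand, 31 CG: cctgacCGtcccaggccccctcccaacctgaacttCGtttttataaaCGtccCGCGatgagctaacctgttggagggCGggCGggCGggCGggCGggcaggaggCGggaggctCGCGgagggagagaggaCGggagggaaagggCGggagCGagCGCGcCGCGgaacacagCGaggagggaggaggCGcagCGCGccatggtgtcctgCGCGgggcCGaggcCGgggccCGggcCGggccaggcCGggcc
Hoxa13, chr6:52210875-52211124, minus strand, 35 CG: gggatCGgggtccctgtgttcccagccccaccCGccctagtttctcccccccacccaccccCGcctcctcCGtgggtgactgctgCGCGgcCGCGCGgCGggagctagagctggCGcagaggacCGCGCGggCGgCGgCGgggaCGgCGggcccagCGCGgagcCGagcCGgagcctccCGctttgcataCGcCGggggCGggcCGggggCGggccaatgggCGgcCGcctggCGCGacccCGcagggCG
Six2, chr17:86087595-86087844, minus strand, 26 CG: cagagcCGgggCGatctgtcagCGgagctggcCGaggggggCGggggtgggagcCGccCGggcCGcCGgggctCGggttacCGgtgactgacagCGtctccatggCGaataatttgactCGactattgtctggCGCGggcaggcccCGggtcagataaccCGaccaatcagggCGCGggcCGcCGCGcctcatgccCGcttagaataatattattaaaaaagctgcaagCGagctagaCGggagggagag

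No Hox gene reached 1 FPKM in any embryo. Of the 156 values of 39 genes in 4 embryos, 97 were listed at 0 and 59 were above 0, of which 9 were at 0.1 FPKM or more. As these are bulk libraries, few cells with a transcript and little of it in each cell cannot be told apart. The highest single value was 0.314 FPKM, for Hoxa2 in the Foxf2-/- 2 embryo. In all, 11 genes were listed at 0 in every embryo, among them Hoxa6, Hoxa13, Hoxb13, Hoxc6, Hoxc9, Hoxc11, Hoxc12, Hoxc13, Hoxd1 and Hoxd11. Another 25 genes were above 0 somewhere but below 0.1 FPKM in every embryo, and 3, Hoxa2, Hoxc4 and Hoxc8, reached 0.1 FPKM in some embryo. The share of Hox genes below 0.1 FPKM in every embryo was 92.3%, against 29.1% of all genes. The share listed at 0 in every embryo was 28.2%, against 19.6% of all genes, and 50.1% of all genes but no Hox gene were at 1 FPKM or more in every embryo. The gene with the highest mean of the clusters, Hoxc4, had 13520 genes above it, and even the sum of all 39 genes was exceeded by 11389 single genes.

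**Figure D1:**
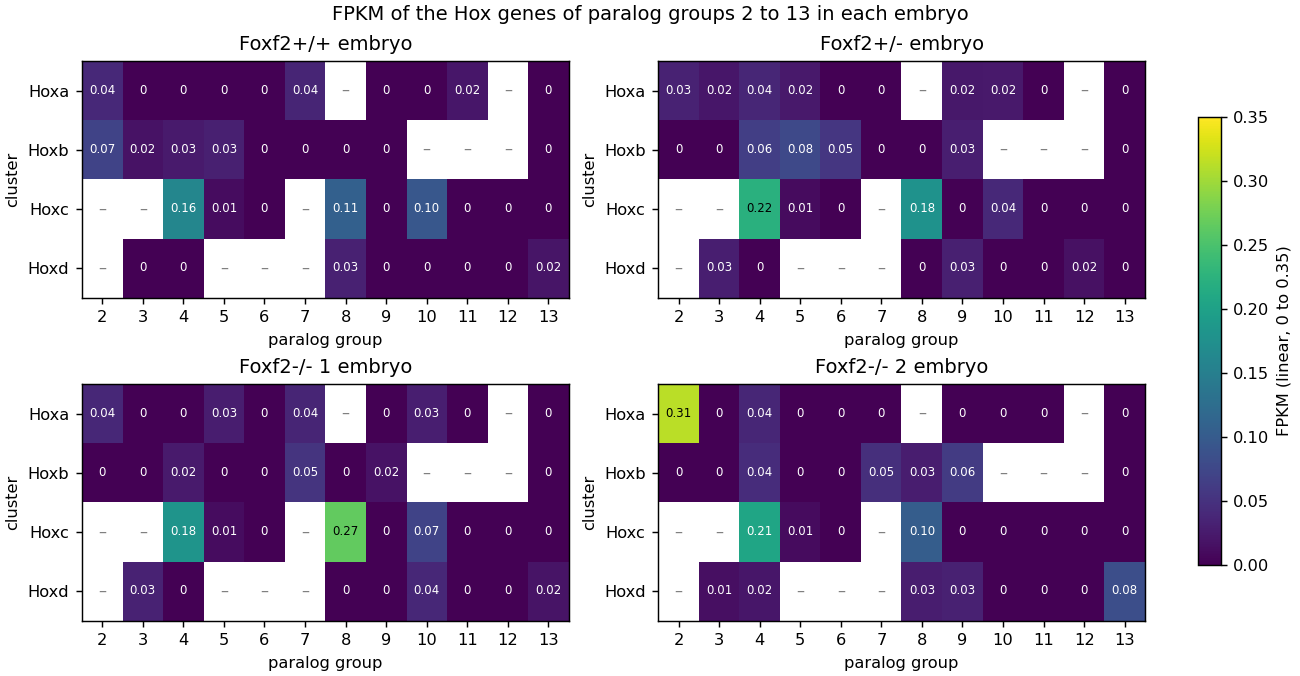
Level of the Hox genes of paralog groups 2 to 13 in each embryo, with clusters as rows, paralog groups as columns and FPKM as colour on a linear scale. A dash marks a paralog that the mouse does not have. Most squares are at 0 and the brightest square is Hoxa2 in the Foxf2-/- 2 embryo, at 0.314 FPKM.

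The values above 0 rested on very little sequence. The aligned bases behind a value, taken as the deposited coverage times the transcript length, had a lowest nonzero value of 42.9, a median of 92.6 and a highest value of 877. Of the 59 nonzero values, 33 rested on at most 100 aligned bases and 10 on more than 300. In several genes the nonzero values stood near whole multiples of the smallest. Hoxb4, an anterior Hox gene of hindbrain and trunk, had 89.4, 267, 88.8 and 177 aligned bases, which are 1.01, 3.01, 1 and 1.99 times the smallest. Hoxc5 had 43.0, 43.4, 43.5 and 42.9 aligned bases, the same step in every embryo. The step thus differed between genes, so 100 or 300 aligned bases need not stand for the same number of steps in each. For Hoxc4 the multiples were 1, 1.65, 1.16 and 1.47 of a smallest value of 431 aligned bases. That value may itself hold several steps, so these multiples cannot show whether Hoxc4 kept to steps. A step of this kind was also looked for in the whole data. The 312 genes compared had a single entry of at least 1000 bases, and 25 to 75 aligned bases in at least 2 embryos. Of these, 263 (84.3%) had values in that range that agreed within 5%. Values outside the range were not compared, so steps like that of Hoxb4 were not covered. The read length is not given in the sources used here, so steps were not converted into reads, and a value of 0 cannot be told apart from a transcript too rare to be sampled at this depth.

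Detection was not even from gene to gene. The 11 genes above 0 in a single embryo were at most at 0.0709 FPKM, the value of Hoxb2 in the Foxf2+/+ embryo. A further 8 genes were above 0 in 2 embryos and 4, Hoxb9, Hoxc10, Hoxd3 and Hoxd13, in 3 embryos. The 5 genes above 0 in all 4 embryos were Hoxa2, Hoxb4, Hoxc4, Hoxc5 and Hoxc8, of which 3 lie in the Hoxc cluster. The number of Hox genes above 0 per embryo was 13, 17, 14 and 15. The deepest library, Foxf2+/-, thus had the most genes detected, and the shallowest, Foxf2+/+, the fewest; the part of depth in this was not tested.

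Hoxc4 and Hoxc8 were the only Hox genes at 0.1 FPKM or more in all 4 embryos. Hoxc4, which is known for its role in the neck and anterior trunk, was at 0.160, 0.222, 0.181 and 0.206 FPKM. Both Foxf2-/- values lay between the controls. Controls averaged 0.191 ± 0.0441 FPKM (SD, n = 2) and Foxf2-/- embryos 0.194 ± 0.0180 (SD, n = 2). Hoxc8, a gene of the thoracic trunk, was at 0.107, 0.179, 0.266 and 0.103 FPKM. The Foxf2-/- embryos held both its highest and its lowest value, so that the groups overlapped. Both genes lie on the plus strand of mm9 chromosome 15, Hoxc8 at chr15:102820970-102824685 and Hoxc4 at chr15:102864826-102867283. Hoxc9 and Hoxc6, on either side of Hoxc8, were listed at 0 in every embryo. Hoxc10 was at 0.0956, 0.0405, 0.0697 and 0 FPKM, and Hoxc11, Hoxc12 and Hoxc13 were listed at 0 throughout.

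Hoxa2 (chr6:52112510-52114830), the gene of second arch crest, was at 0.0405, 0.0340, 0.0394 and 0.314 FPKM. The first 3 embryos thus each stood at a single step of 92.1 to 92.4 aligned bases, and the Foxf2-/- 2 embryo at 820 aligned bases, 8.90 times the smallest. The other Foxf2-/- embryo was within the range of the controls. The same Foxf2-/- 2 embryo had the highest Hoxd13 value, in a series of 0.0195, 0, 0.0189 and 0.0840 FPKM. Hoxd13, known for its part in digits and the genital region, again had 1 step of 65.4 to 65.8 aligned bases in 2 embryos and 324 in the Foxf2-/- 2 embryo. That library also had the highest sum over the 8 red blood cell markers, 4375 FPKM against 297 to 1837 in the others, and over the 6 endothelial markers, 1.5 against 0.404 to 0.893. The 8 nerve and glia markers summed to 6.00 FPKM in it, against 3.81 to 6.01 in the others, and the 11 epithelial markers to 12.9 against 10.4 to 11.3. The 11 palatal mesenchyme markers were highest in it too, at 1256 FPKM against 1135 to 1220. The 6 skeletal muscle markers were not, at 0.136 FPKM against 0.0160 to 0.241. The part of other cells in the Hoxa2 and Hoxd13 values was not tested.

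**Figure D2:**
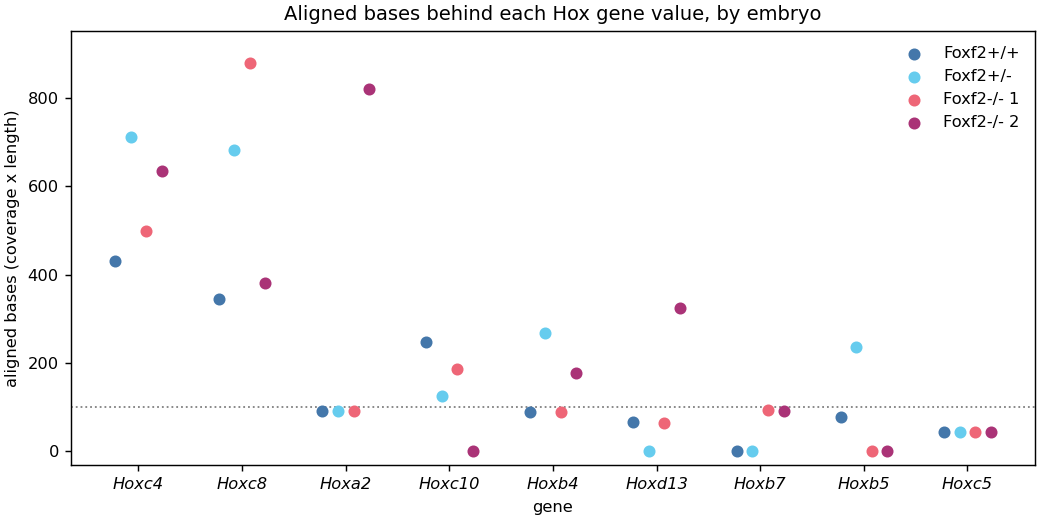
Aligned bases (coverage times length, linear axis) behind the values of 9 Hox genes, 1 point per embryo, with a dotted line at 100. Hoxc4 and Hoxc8 are spread over all embryos, Hoxa2 has 3 embryos near 92 and the Foxf2-/- 2 embryo at 820, and Hoxc5 stays near 43.

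No Hox gene was called changed in the Foxf2-/- embryos. Tests were made with limma on log2(FPKM + 0.1) over all genes with a mean of at least 1 FPKM, and a gene was called at a Benjamini-Hochberg adjusted p below 0.05 and a change of more than 1.5-fold. None of the 39 Hox genes entered that fit, in which 7 of 11154 genes were called (0.0628%). The same fit without the filter held the 28 Hox genes above 0 in some embryo and called 0 of them. It called 0 of its 17171 genes (0%), among them Foxf2, which the filtered fit called (limma adjusted p = 0.00533). The unfiltered fit therefore cannot show whether a Hox gene changed. Of the Hox genes, 1 had an unadjusted p below 0.05, against 1777 genes (10.3%) in the whole unfiltered fit. That gene was Hoxb7, listed at 0 in both controls and at 0.0525 and 0.0469 FPKM in the Foxf2-/- embryos (limma adjusted p = 0.452). Hoxb5 had the opposite pattern, with 0.0305 and 0.0774 FPKM in the controls and 0 in both Foxf2-/- embryos (limma adjusted p = 0.482). Hoxb7 and Hoxb5 were the 2 of 28 Hox genes whose groups did not overlap, 1 in each direction. Among all genes of the unfiltered fit 40.7% had groups that did not overlap. Groups that shared a value of 0 counted as overlapping, so the 11 Hox genes above 0 in a single embryo could not qualify. The shares are therefore not directly comparable. Both Hoxb7 values were a single step of about 92 aligned bases.

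Size alone gave 1 Hox gene. A gene passed when the Foxf2-/- mean on the log2(FPKM + 0.1) scale was over 1.5-fold above both controls, or over 1.5-fold below both, which 1.4% of genes with a mean of at least 1 FPKM and 3.72% of all genes without a filter did. Of the 28 Hox genes 1 passed upward and 0 downward without the filter. This was Hoxa2, with a log2 change of 0.81 ± 0.528 (SE) and a limma adjusted p of 0.649, and without the Foxf2-/- 2 embryo the log2 change was 0.02. Without a filter, the log2 changes of the highest genes of the other clusters were 0.02 ± 0.251 for Hoxc4 (adjusted p = 0.990 by limma), -0.10 ± 0.244 for Hoxb4 (adjusted p = 0.910) and 0.44 ± 0.289 for Hoxd13 (adjusted p = 0.652), each with its SE. Hoxc8 differed by 0.19 ± 0.369 (SE, limma adjusted p = 0.886). The pseudocount of 0.1 FPKM exceeds most Hox values, so these changes understate any ratio. For a gene listed at 0 in a whole group the fitted change depends on the pseudocount. Over the 28 genes the log2 changes ran from -0.61 to 0.81 with a median of 0.0023, against a median of -0.07 over all genes of that fit.

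Summed over all 39 genes, Hox levels came to 0.668, 0.920, 0.847 and 1.08 FPKM. Controls averaged 0.794 ± 0.178 FPKM and Foxf2-/- embryos 0.962 ± 0.162 (SD, n = 2 each), and the Foxf2-/- 1 embryo lay between the controls. The log2 ratio of the means was 0.28 (exact permutation p = 0.667, two-sided, adjusted p = 1 over 9 sums). With 2 embryos against 2 the smallest p possible is 0.33. Without Hoxa2 the sums were 0.628, 0.886, 0.808 and 0.762 FPKM and the log2 ratio was 0.05 (exact permutation p = 1). The order of the embryos by summed Hox FPKM was also their order by summed red blood cell markers, which were 297, 1837, 1597 and 4375 FPKM. Without Hoxa2 the orders differed, as the Hox sum of Foxf2-/- 2 then lay between those of Foxf2+/+ and Foxf2-/- 1. The part of blood RNA in the Hox sums was not tested.

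The Hoxc genes made up the largest sum of the clusters in every embryo but Foxf2-/- 2, at 0.374, 0.451, 0.528 and 0.320 FPKM. The Hoxa genes summed to 0.0985, 0.164, 0.133 and 0.352 FPKM, with the last value made up mostly of Hoxa2. The Hoxb genes summed to 0.144, 0.227, 0.0947 and 0.224 FPKM, with the Foxf2-/- embryos on either side of the Foxf2+/+ embryo. The Hoxd genes summed to 0.0519, 0.0772, 0.0916 and 0.181 FPKM, and were the only cluster in which both Foxf2-/- embryos exceeded both controls (log2 ratio 1.07, exact permutation p = 0.33, the smallest possible, and adjusted p = 1). Hoxd13 was at 0 in the Foxf2+/- embryo and at 0.0189 FPKM in Foxf2-/- 1. Without it the Hoxd sum of Foxf2-/- 1 lies below that of Foxf2+/-. By position along the clusters, the 8 genes of paralog groups 1 to 3 summed to 0.128, 0.0845, 0.0733 and 0.373 FPKM. The 15 genes of groups 4 to 8, known from neck and trunk, summed to 0.403, 0.669, 0.600 and 0.527 FPKM and included 13 genes above 0 in some embryo. The 16 genes of groups 9 to 13, which pattern the posterior trunk and limbs, summed to 0.137, 0.166, 0.174 and 0.177 FPKM, with 9 genes above 0 in some embryo (exact permutation p = 0.33, adjusted p = 1). Hoxa3 spans Hoxa4, Hoxa5 and Hoxa6 and Hoxd3 spans Hoxd4 in these annotations, and strand is not stated, so reads of overlapping genes may be shared between them.

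Many genes within 500 kb of the clusters were expressed, but none of them lay closer than 60.7 kb. The Hoxa cluster covers 106 kb at chr6:52105366-52210874, Hoxb 174 kb at chr11:96055675-96229567, Hoxc 116 kb at chr15:102751562-102867283 and Hoxd 96.8 kb at chr2:74506367-74603199. Of 56 other genes inside them or within 500 kb of their ends, 28 (50%) were at 1 FPKM or more in every embryo, close to the share of all genes. The nearest of these 28 was Mtx2, a gene of mitochondrial import, 60.7 kb beyond the Hoxd cluster and at 17.5, 15.9, 18.1 and 18.2 FPKM. On the other side of Hoxd, Lnp, an endoplasmic reticulum gene, had a mean of 5.08 FPKM. The highest neighbours were Tax1bp1 for Hoxa at a mean of 28.9 FPKM, Atp5g1 for Hoxb at 102 and Atp5g2 for Hoxc at 138. Of the 4 other genes that lie inside the clusters, 3 were listed at 0 in every embryo, and the antisense gene Hoxa11as was above 0 only in the Foxf2-/- 2 embryo, at 0.0374 FPKM. Evx1 and Evx2, homeobox genes at the ends of the Hoxa and Hoxd clusters, were listed at 0 in every embryo. The 6 hairpin entries of the Mir10, Mir196 and Mir615 genes in the clusters were also at 0, as were 59.3% of all 801 entries shorter than 200 bases, a length for which FPKM is a poor measure.

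**Figure D3:**
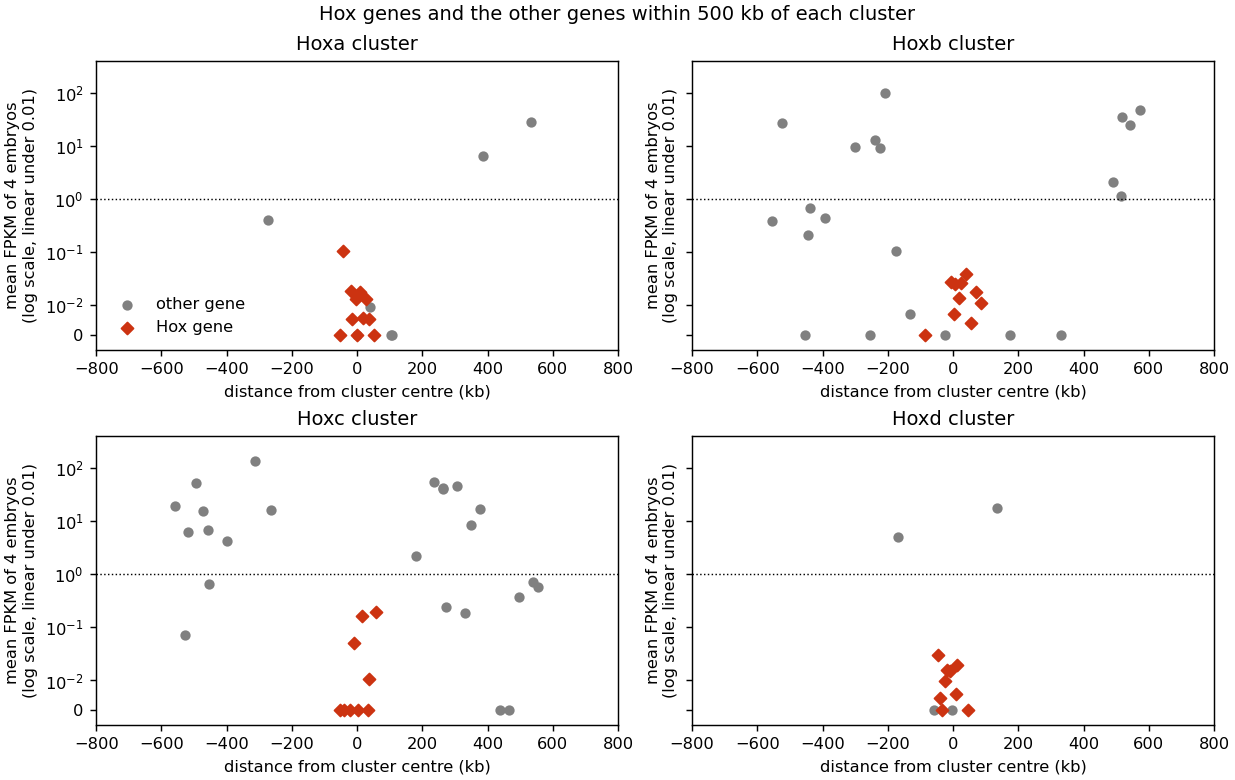
Mean FPKM over 4 embryos (log scale, linear below 0.01) of Hox genes (red diamonds) and of other genes within 500 kb (grey circles) against distance from the cluster centre in kb, 1 panel per cluster. All Hox genes lie below the dotted line at 1 FPKM, and 28 of the 56 other genes are at 1 FPKM or more in every embryo.

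The genes that Hox proteins work with, and those known to keep the clusters off, were expressed. Of the 9 TALE homeobox genes, whose products bind DNA together with Hox proteins, 8 were at 1 FPKM or more in every embryo, with a median over the list of 6.22 FPKM. Of 11 genes of Polycomb repressive complex 2, 10 were, with a median over the list of 11.6 FPKM and Rbbp7, a histone-binding subunit, highest at 59.5. The methyltransferase Ezh2 was at 36.3, 39.1, 34.9 and 32.4 FPKM. Of 17 genes of Polycomb repressive complex 1, 15 were, led by Phc1 at a mean of 28.9 FPKM. All 10 Trithorax and H3K27 demethylase genes, which oppose Polycomb, were at 1 FPKM or more, with Dpy30 highest at a mean of 43.3. Among 13 other upstream regulators of Hox genes 10 were, with Cyp26b1, an enzyme that breaks down retinoic acid, highest at 27.6. Of the 6 ParaHox genes, relatives of the Hox genes that include the Cdx regulators of posterior Hox expression, 5 were listed at 0 in every embryo and Cdx1 was at 0.0351 FPKM in the Foxf2-/- 1 embryo alone. The list of 23 genes of first-arch and palatal crest had a median of 33.0 FPKM, and 19 of its members were at 1 FPKM or more in every embryo. Otx2, a gene of forebrain and midbrain and a member of that list, was at 0, 0.0430, 0 and 0.0222 FPKM, within the range of the Hox genes.

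**Figure D4:**
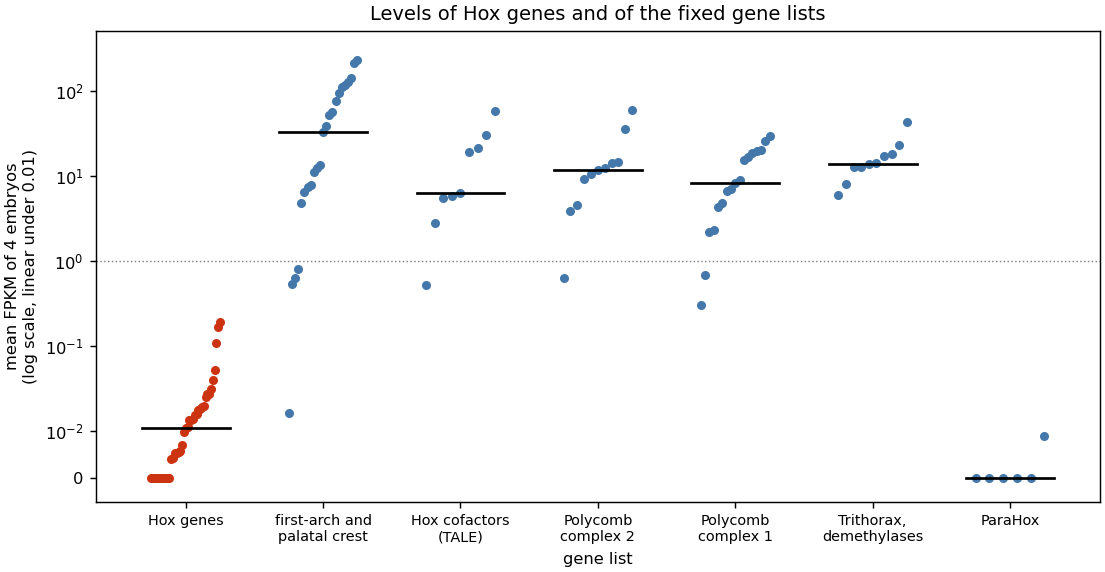
Mean FPKM over 4 embryos of each gene (log scale, linear below 0.01) for the Hox genes in red and 6 gene lists in blue, with a bar at the median. Polycomb, TALE and first-arch lists have medians of 6.22 to 33.0 FPKM and every Hox gene lies below 0.2 FPKM.

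None of these genes was called changed in the Foxf2-/- embryos. Of the 110 genes in the lists, 86 passed the filter of a mean of 1 FPKM and 0 were called by limma, where 0.0628% of all tested genes were. At an unadjusted p below 0.05 there were 13 (15.1% of the 86), against 1452 (13%) of the 11154 genes in the same fit. Their median log2 change was -0.07, against -0.08 over all genes tested. Jazf1, a zinc finger gene of the list flanking the Hoxa cluster, was at 3.14, 4.61, 7.54 and 8.43 FPKM, with both Foxf2-/- embryos more than 1.5-fold above both controls on average (log2 change 1.05 ± 0.181, SE, limma adjusted p = 0.125). It was called when the Foxf2+/- embryo was left out or given its own mean, and with Foxf2 null alleles as a linear term. Among the genes below the filter, Cyp26c1, another retinoic acid-degrading enzyme, was at 0.603, 0.675, 0.162 and 0.670 FPKM, with 1 Foxf2-/- embryo low and 1 at the level of the controls.

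The windows upstream of the Hox genes held more CG than those of other genes at such low levels. In the 250 bases upstream of the start, as printed above for Hoxc9, Hoxd13 and Hoxa13, the 39 Hox genes had a median of 13 CG dinucleotides, and 28 (71.8%) had at least 10. Of the 11 Hox genes listed at 0 in every embryo 10 had at least 10, with a median of 17. Of the 28 above 0 in some embryo 18 (64.3%) did, with a median of 12. Among 5828 other genes below 0.1 FPKM in every embryo the median was 2 and 12.3% had at least 10. Among 10984 other genes with a mean of at least 1 FPKM the median was 17 and 79.2% had at least 10. All 20656 genes with a window had a median of 11, and 53.8% had at least 10. Of the 39 Hox windows 26 (66.7%) overlapped an annotated exon, against 45.9% of all windows. Among the 11 Hox genes listed at 0 in every embryo 9 windows did. In windows without overlap, a split chosen after seeing the data, the median was 12 CG for 13 Hox genes and 7 for all genes. It was 2 for other genes below 0.1 FPKM and 16 for other genes with a mean of at least 1 FPKM. The Hox genes ranged from 3 CG in Hoxa9, Hoxb3 and Hoxd4 to 48 in Hoxd8. Genes of a cluster are neighbours and paralogs and not independent, so this is a description without a test, and CG content says nothing of methylation or histone marks, which were not measured. A forkhead core, the letters TGTTTAC on either strand and the only motif searched, was found in the window of 0 of the 39 Hox genes and of 2.59% of all 20656 genes.

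**Figure D5:**
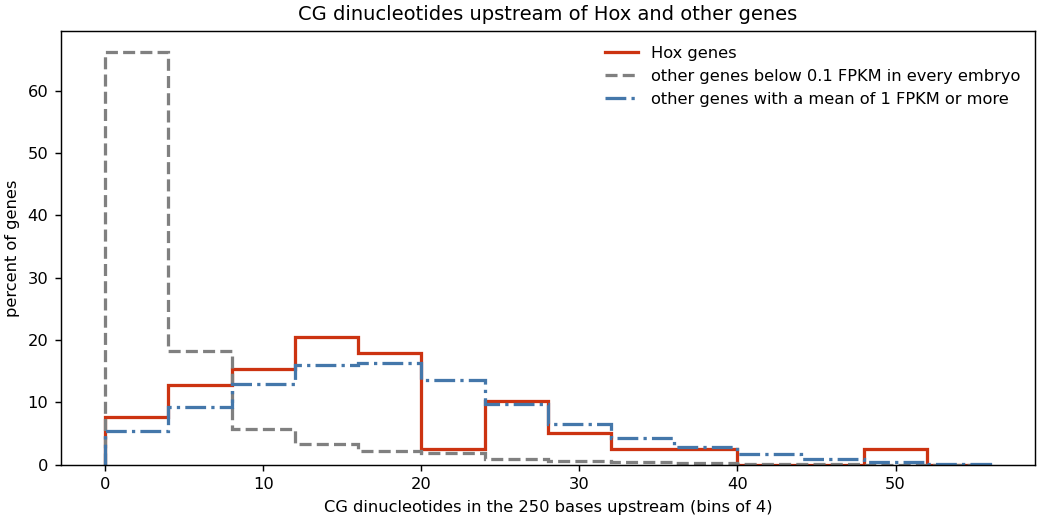
Percent of genes (y axis) by the number of CG dinucleotides in the 250 bases upstream (x axis, bins of 4) for Hox genes (red), other genes below 0.1 FPKM in every embryo (grey) and other genes with a mean of 1 FPKM or more (blue). The median was 13 for the Hox genes, 17 for the other genes with a mean of 1 FPKM or more and 2 for the other genes at low levels. Over all genes, which are not drawn, it was 11.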

How the data were processed

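RNA of RFP-sorted palatal cells was sequenced from 4 embryos, 1 table each. The authors used Tophat and Bowtie 0.12.7 to place the single-end reads on mm9. They deposited FPKM per RefSeq transcript with its coverage, an unscaled mean read depth, in the layout of Cufflinks output. The program's version and options and the read length are not given in the sources used here. The authors' methods describe RPKM from other software, which was not used. Each deposited table holds 28107 entries. Entries of at least 200 bases were summed by symbol. The 10 genes with a failed estimate and 734 genes with only shorter entries were left out, which kept 21352.

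log2(FPKM + 0.1) was fitted with limma 3.58.1 (R 4.3.3, variance trend), both Foxf2-/- embryos against both controls, over genes with a mean of at least 1 FPKM. Each limma p-value was adjusted by the Benjamini-Hochberg method over all genes of its fit. Sums were compared by exact permutation. The script was tested on simulated data. As no Hox gene passed the filter, Hox changes come from the fit without a filter. Python 3.11.15, pandas 2.3.3, numpy 2.4.6 and scipy 1.17.1 were used. Upstream windows were read from the NCBIM37 (mm9) genome with GENCODE strands.

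The tables hold no read counts, so depth in reads is unknown and no counting interval is given. Genes named were the highest of each cluster and list and those past 1.5-fold against both controls. Some of these are not reported here. Hoxb5, Hoxb7, Hoxc5, Hoxc10 and the other single genes were chosen after their values were seen. The members and lists were chosen with earlier results of these data known.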

Additional observations from a re-analysis of the deposited data

How the results depend on the processing

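No Hox gene was at 1 FPKM or more in every embryo under any of 9 alternatives, and 0 were called under 16. Of these fits, the one without a filter was the only one to hold any Hox gene, 28 in all, so the other zeros restate the low levels. The fit without a filter called no gene at all, Foxf2 included, so it cannot show whether a Hox gene changed. Without a filter, 1 Hox gene (Hoxa2) passed 1.5-fold against both controls. The number of list genes called was 1 (Jazf1) with separate genotype means and with Foxf2 null alleles as a linear term, and 0 to 1 when each embryo was left out in turn, with 1 when the Foxf2+/- embryo was. The log2 ratio of summed Hox FPKM, 0.28, ran from 0.06 without the Foxf2+/+ embryo to 0.53 without the Foxf2+/- embryo and was 0.09 without Foxf2-/- 2. For Hoxa it ran from 0.01 without Foxf2-/- 2 to 1.42 without Foxf2-/- 1, and for Hoxd from 0.50 to 1.48 without the same embryos. For Hoxb, -0.22, it turned to 0.15 without the Foxf2+/- embryo and 0.27 without Foxf2-/- 1, and was -0.97 without Foxf2-/- 2. For Hoxc, 0.04, it turned to -0.09 without the Foxf2+/+ embryo and -0.37 without Foxf2-/- 1, and was 0.36 without Foxf2-/- 2. The cause was not tested. The log2 change of Hoxd13, 0.44, was 1.60 with a pseudocount of 0.01 and 0.06 with a pseudocount of 1. That of Hoxa2, 0.81, was 1.43 and 0.17 with these, and from 0.02 without Foxf2-/- 2 to 1.59 without Foxf2-/- 1. No paired analysis was possible because the labels number only the Foxf2-/- embryos, and each control genotype has 1 embryo without a number. Most nonzero Hox values rest on at most 100 aligned bases, which limits their precision.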
